A study of Mus musculus with 6 samples.

Results

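The cholesterol genes described here are 27 genes fixed by name. Of these, 21 are enzymes or partners of enzymes on the route from acetyl-CoA to cholesterol or, for Ggps1, on a branch leading away from sterols. The others are 4 regulators of the sterol-responsive transcription factor SREBP and 2 proteins that move cholesterol inside the cell. All 27 of 27 were found by symbol among the 24413 genes of the deposited FPKM table (sequenced fragments corrected for gene length and library size), and all 27 had a mean of at least 1 FPKM, the level required for testing. None of them is a receptor that takes up lipoproteins, so uptake is covered only by a separate list given near the end.

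RNA-seq libraries were made from Tppp3+ cells, sorted by their tdT reporter from Achilles tendons of male mice aged 12 weeks with the genotype Tppp3ECE/+;R26RtdT-CreERT2;ScxGFP. There were 3 libraries of cells kept for 24 h in DRG CM, medium conditioned by cultured dorsal root ganglion (DRG) cells. The controls were 3 libraries of the same kind of cells kept for 24 h in medium with 1% FBS, so both groups carry the Cre, the tdT reporter and the Scx-GFP transgene, and the reporter depends on where and when Tppp3 drives the Cre. The ganglia came from 3 male C57BL/6J mice aged 12 weeks, were kept 4 to 5 days with 5-fluoro-2-deoxyuridine and uridine at 20 µM each, and then gave conditioned medium in 1% FBS. Tendons came from 3 mice, but which mouse gave which library is not stated, so the p-values rest on differences among libraries that may be technical. Factors added by the ganglion cells, depletion of the medium by them and residue of the drugs cannot be told apart.

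Cholesterol is built from acetyl-CoA through mevalonate and the isoprenoid diphosphates, which are joined to squalene, closed to the first sterol, lanosterol, and trimmed stepwise to cholesterol. When sterols in the endoplasmic reticulum run low, SCAP escorts the SREBP precursors to the Golgi, where proteases release the part that enters the nucleus and binds sterol regulatory elements in the promoters of these enzymes, usually beside NF-Y and Sp1 sites. When sterols are plentiful, INSIG proteins hold SCAP and SREBP in the endoplasmic reticulum. Fibroblasts of connective tissue make cholesterol for their own membranes by this route and also take it up from serum lipoproteins.

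In conditioned medium 12 of the 27 genes were higher and 0 lower at an adjusted p below 0.05 (limma on log2(FPKM + 1), Benjamini-Hochberg over 11678 genes). Across all genes tested, 6.53% were called in either direction, 4.04% higher and 2.49% lower. Higher calls were 61.9% of all calls, and 52.2% with quantile normalization or 50.9% with TPM scaling, where 9 of the 27 were called higher and 0 lower. With each of these settings, 3.37% of all genes tested were called higher. The 12 are all enzymes: Acat2, Hmgcs1, Pmvk, Mvd, Idi1, Lss, Cyp51, Msmo1, Nsdhl, Hsd17b7, Sc5d and Dhcr7. In 22 of the 27 genes all 3 conditioned libraries lay above all 3 controls, and in 0 they lay below. Over all genes tested, 14.3% had the conditioned libraries all above and 11.6% all below the controls. The changes were small, with a median log2 fold change of 0.22 over the 27 genes beside 0.0052 over all genes tested, and the largest was 0.42. At an unadjusted p below 0.05, 20 of the 27 were higher and 0 lower, beside 11.2% higher and 8.41% lower of all genes tested. By limma's voom on recovered fragments 19 were called higher and 0 lower, beside 5.61% and 4.18% of all genes tested. The number of all genes called higher was 472, and it was 274, 265 and 311 without conditioned replicate 1, conditioned replicate 2 or control replicate 2. Among the 27 genes it was 10, 9 and 10 there.

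Summed over the 27 genes, the level was 687, 686 and 685 FPKM in conditioned replicates 1, 2 and 3, against 586, 585 and 589 FPKM in control replicates 1, 2 and 3. The 3 values of a group lay close together and the groups were well apart, so the summed level did not rest on 1 library. Conditioned replicates 1, 2 and 3 had 22, 23 and 24 of the 27 genes above the highest control. The share of all genes for a single library was not computed, so these counts have no background to be read against. In fragments, single genes had between 181 and 7666 per library.

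**Figure D1:**
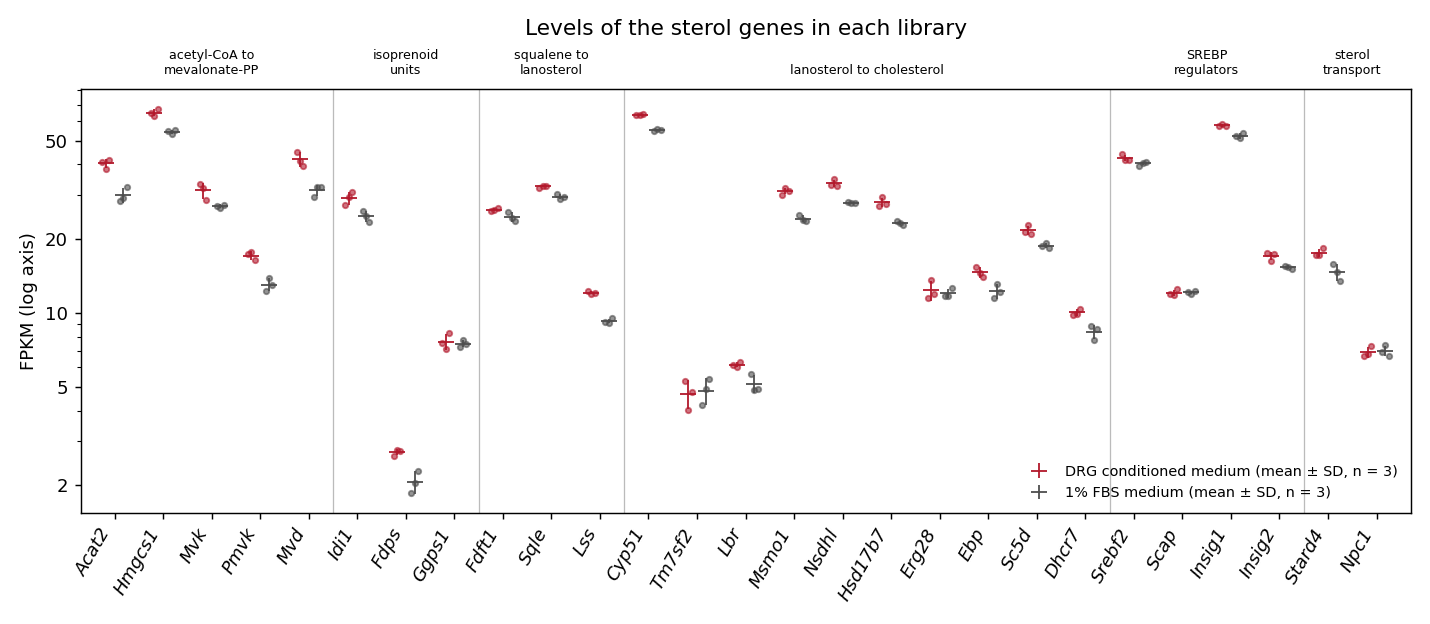
FPKM on a log axis (vertical) of the 27 genes in pathway order (horizontal), with a point for each library and a bar with whiskers for the mean ± SD (n = 3), DRG conditioned medium in red to the left of 1% FBS medium in grey. Hmgcs1, Cyp51 and Insig1 are the 3 highest genes and Fdps the lowest, and in most genes the red points sit slightly above the grey ones.

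**Figure D2:**
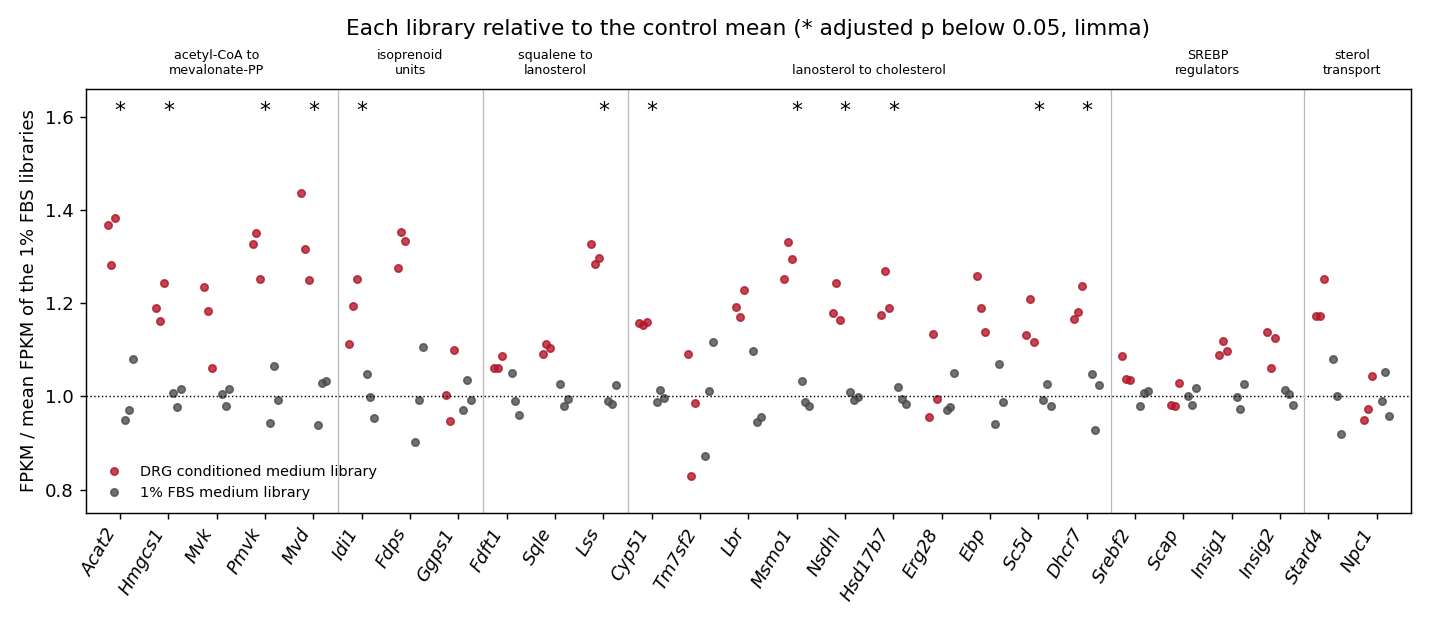
FPKM of each library divided by the mean of the 1% FBS libraries (vertical, linear axis), for the same genes in the same order, conditioned libraries in red to the left of controls in grey. An asterisk marks the 12 genes with an adjusted p below 0.05, and in 22 genes every red point lies above every grey point.

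Promoter bases are shown because SREBP is known to act through short motifs there. They are the 250 bases just before the RefSeq start (GRCm38.p6, the assembly of mm10), read 5′ to 3′ on the strand of the gene. They belong to the 5 genes with the largest log2 fold change and the 2 with the smallest absolute one, among those with a RefSeq start within 30 bases of the GENCODE start. That limit left out Msmo1 and Hsd17b7, which changed more than Hmgcs1 and whose starts lie 214 and 36 bases apart. Fdps, which also changed more than Hmgcs1, and Npc1, with a smaller absolute change than Ggps1, had no RefSeq promoter to show. Capitals mark the sterol regulatory element TCACNCCAC, the NF-Y box CCAAT and the Sp1 box GGGCGG on either strand, so that ATTGG is the NF-Y box and CCGCCC the Sp1 box read on the other strand. The windows are chr17:12960726-12960975 (minus strand) for Acat2, chr8:122443423-122443672 (minus) for Mvd, chr3:89454291-89454540 (plus) for Pmvk, chr10:76531355-76531604 (plus) for Lss, chr13:119690101-119690350 (plus) for Hmgcs1, chr9:110333038-110333287 (plus) for Scap and chr13:14063489-14063738 (minus) for Ggps1.
Acat2: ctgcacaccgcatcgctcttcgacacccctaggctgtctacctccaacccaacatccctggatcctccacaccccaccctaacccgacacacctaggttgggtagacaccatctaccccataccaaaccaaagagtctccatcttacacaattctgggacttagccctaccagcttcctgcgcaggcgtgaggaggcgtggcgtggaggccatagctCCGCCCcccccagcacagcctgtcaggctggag
Mvd: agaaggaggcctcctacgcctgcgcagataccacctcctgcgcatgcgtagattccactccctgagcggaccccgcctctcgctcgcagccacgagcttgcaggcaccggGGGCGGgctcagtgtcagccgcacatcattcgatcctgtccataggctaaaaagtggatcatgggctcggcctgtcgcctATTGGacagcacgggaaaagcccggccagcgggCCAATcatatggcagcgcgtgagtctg
Pmvk: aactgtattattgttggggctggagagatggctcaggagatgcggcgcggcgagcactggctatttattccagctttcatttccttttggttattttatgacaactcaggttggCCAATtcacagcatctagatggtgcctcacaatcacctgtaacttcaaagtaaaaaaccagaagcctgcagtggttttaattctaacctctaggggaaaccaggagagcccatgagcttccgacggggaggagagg
Lss: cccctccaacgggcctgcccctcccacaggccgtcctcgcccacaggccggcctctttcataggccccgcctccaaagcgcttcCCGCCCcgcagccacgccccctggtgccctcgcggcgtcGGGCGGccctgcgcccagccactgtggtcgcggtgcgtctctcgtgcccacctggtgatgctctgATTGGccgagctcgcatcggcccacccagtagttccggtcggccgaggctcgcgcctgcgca
Hmgcs1: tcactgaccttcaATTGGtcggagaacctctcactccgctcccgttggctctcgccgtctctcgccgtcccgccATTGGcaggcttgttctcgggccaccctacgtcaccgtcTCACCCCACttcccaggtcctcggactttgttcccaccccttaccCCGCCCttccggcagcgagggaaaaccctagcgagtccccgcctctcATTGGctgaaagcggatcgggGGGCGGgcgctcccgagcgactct
Scap: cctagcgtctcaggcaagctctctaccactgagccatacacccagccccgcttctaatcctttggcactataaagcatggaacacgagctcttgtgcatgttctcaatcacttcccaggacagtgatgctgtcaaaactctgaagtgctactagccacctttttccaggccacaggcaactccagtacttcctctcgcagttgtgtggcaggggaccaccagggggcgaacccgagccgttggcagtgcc
Ggps1: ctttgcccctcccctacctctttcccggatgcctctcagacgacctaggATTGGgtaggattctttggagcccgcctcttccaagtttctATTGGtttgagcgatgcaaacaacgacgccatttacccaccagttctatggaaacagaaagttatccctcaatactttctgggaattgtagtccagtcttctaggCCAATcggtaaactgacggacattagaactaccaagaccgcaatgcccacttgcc

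Hmgcs1 holds a sterol regulatory element whose first base lies at -137 from the start, with NF-Y boxes at -237, -176 and -45 and Sp1 boxes at -92 and -24. In the other shown windows of raised genes, Mvd has 2 NF-Y boxes and 1 Sp1 box, Lss has 1 NF-Y box and 2 Sp1 boxes, Pmvk has 1 NF-Y box and Acat2 has 1 Sp1 box. Ggps1, which did not pass, has 3 NF-Y boxes, as many as Hmgcs1. Scap has none of the motifs in the shown window and 1 Sp1 box before another listed start. In all, 22 of the 27 genes had a RefSeq promoter to search, over the 250 bases before any listed start. An NF-Y box was found in 19 of the 22, beside 40.9% of 8546 tested genes with a promoter and 37.5% of all 27025 genes with one. A Sp1 box was found in 20 of the 22, beside 66.7% of those tested genes and 35.4% of all genes with a promoter. The strict form of the sterol element was found in 1 of the 22, Hmgcs1. It was found in 1.31% of those tested genes and 1.23% of all genes with a promoter. These are matches of letters and were not tested, and the absence of a match says only that these letters are not in this window.

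The first steps, from acetyl-CoA to the diphosphate of mevalonate, held 4 raised genes of 5, with a median log2 fold change of 0.37. All 5 had their conditioned libraries above the controls. Of all genes tested, 4.04% were called higher and 14.3% had the conditioned libraries all above the controls. Whether the steps of the route differ from each other was not tested. Acat2, the cytosolic thiolase that joins acetyl-CoA units into acetoacetyl-CoA (chromosome 17 from 12942890 to 12960747, mm10), had 41.1, 38.5 and 41.5 FPKM in conditioned libraries and 28.5, 29.1 and 32.5 FPKM in controls. Its log2 fold change of 0.42 ± 0.06 SE (adjusted p = 0.0036, limma) was the largest of the 27. The lowest conditioned library stood at 1.19 times the highest control. Acat3, a closely related gene, was listed at 0.203 ± 0.0743 FPKM in conditioned and 0.283 ± 0.0788 FPKM in control libraries (SD, n = 3 each), so few fragments were assigned to it.

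Hmgcs1, the cytosolic synthase that adds a further acetyl-CoA (chromosome 13 from 119690379 to 119708260), had the highest mean FPKM of the 27, close to that of Cyp51. It had 64.5, 63.0 and 67.5 FPKM in conditioned libraries and 54.7, 53.0 and 55.1 FPKM in controls, with no overlap. Its log2 fold change was 0.26 ± 0.04 SE (adjusted p = 0.0061, limma), a mean 19.8% higher. Mvk, mevalonate kinase, had 33.4, 32.0 and 28.7 FPKM in conditioned libraries and 27.2, 26.5 and 27.5 FPKM in controls. Conditioned replicate 3 lay close to the controls, and Mvk did not pass (log2 fold change 0.20 ± 0.06 SE, adjusted p = 0.081, limma). Without that library its value was 0.26, with an adjusted p of 0.019.

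Pmvk and Mvd follow Mvk, as the kinase that adds the second phosphate and the decarboxylase that yields isopentenyl diphosphate. Pmvk (chromosome 3 from 89454541 to 89469013) had 17.3, 17.6 and 16.3 FPKM in conditioned libraries and 12.3, 13.9 and 12.9 FPKM in controls. It rose by 0.37 ± 0.05 SE on the log2 scale (adjusted p = 0.0060, limma). Mvd (chromosome 8 from 122433601 to 122443422) had 45.1, 41.4 and 39.3 FPKM in conditioned libraries and 29.5, 32.3 and 32.5 FPKM in controls. Its rise was 0.40 ± 0.06 SE on the log2 scale (adjusted p = 0.0058, limma). Both groups of values were clearly apart for both genes, with the lowest conditioned library at 1.18 times the highest control for Pmvk and 1.21 times for Mvd.

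The isoprenoid enzymes gave 1 raised gene of 3, beside 4.04% of all genes tested. Idi1, the isomerase of isopentenyl diphosphate, had 27.4, 29.4 and 30.8 FPKM in conditioned libraries and 25.8, 24.6 and 23.5 FPKM in controls. It rose by 0.24 ± 0.05 SE on the log2 scale (adjusted p = 0.042, limma), a call lost without conditioned replicate 2 or 3 or control replicate 2 or 3 (adjusted p = 0.152, 0.123, 0.127 and 0.109). Fdps, farnesyl diphosphate synthase, was by far the lowest of the 27, with 2.62, 2.78 and 2.74 FPKM in conditioned libraries and 1.85, 2.04 and 2.27 FPKM in controls. The groups did not overlap, but it did not pass (log2 fold change 0.28 ± 0.07 SE, adjusted p = 0.056, limma), and it passed without control replicate 3 (adjusted p = 0.046). Of its exonic bases, 26.7% are shared with Gm43738, an annotated gene on the same strand, so its level is uncertain.

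Ggps1, which lengthens farnesyl to geranylgeranyl diphosphate and so leads away from sterols, had 7.52, 7.09 and 8.24 FPKM in conditioned libraries and 7.28, 7.76 and 7.44 FPKM in controls. The groups overlapped, and the log2 fold change was 0.02 ± 0.06 SE (adjusted p = 0.90, limma), with bounds of -0.10 to 0.14 at 2 SE. The sign turned negative with TPM scaling and without conditioned replicate 3. Tm7sf2, Erg28, Scap and Npc1, the other 4 genes with overlapping groups, also changed sign under at least 1 alternative. Further genes of this branch and of protein prenylation, which attaches isoprenoids to proteins, gave 0 calls of 14 tested in limma. Of all genes tested limma called 6.53%, so 0 of 14 is near that share. At an unadjusted p below 0.05 there was 1, which was lower, beside 19.6% of all genes in either direction. Voom called 0, beside 5.61% higher and 4.18% lower of all genes. The median log2 fold change of the list was 0.02.

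From farnesyl diphosphate to lanosterol, 1 gene of 3 was called higher, beside 4.04% of all genes tested. Fdft1, squalene synthase, had 26.0, 26.0 and 26.6 FPKM in conditioned libraries and 25.8, 24.3 and 23.5 FPKM in controls (log2 fold change 0.09 ± 0.04 SE, adjusted p = 0.28, limma). The values did not overlap, the lowest conditioned library being at 1.01 times the highest control. Its exons share 18.3% of their bases with Ctsb on the opposite strand, a lysosomal protease that rose to 137 ± 2.15 FPKM in conditioned libraries, against 114 ± 1.46 FPKM in controls (SD, n = 3 each). The strand setting of the counting is not given in the sources used here, so fragments of Ctsb within Fdft1 cannot be told apart. Smaller shares, from 3.53% to 13.2% of exonic bases, lie opposite annotated neighbours in Hmgcs1, Idi1, Lss, Cyp51, Lbr, Scap and Ggps1.

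Sqle, squalene epoxidase, had 32.2, 32.9 and 32.7 FPKM in conditioned libraries and 30.3, 28.9 and 29.4 FPKM in controls. The conditioned values were nearly equal and all above the controls, yet the log2 fold change of 0.14 ± 0.04 SE did not pass (adjusted p = 0.065, limma). Lss, the cyclase that makes lanosterol (chromosome 10 from 76531588 to 76557138), had 12.3, 11.9 and 12.0 FPKM in conditioned libraries and 9.18, 9.12 and 9.50 FPKM in controls. It rose by 0.35 ± 0.04 SE on the log2 scale (adjusted p = 0.0020, limma). Its gap between the groups was the widest of the 27, with the lowest conditioned library at 1.25 times the highest control.

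Lanosterol to cholesterol was the longest stretch, with 6 raised genes of 10, beside 4.04% of all genes tested. Its median log2 fold change was 0.23. Cyp51, the demethylase that acts first on lanosterol (chromosome 5 from 4081145 to 4104746), had 63.8, 63.6 and 64.0 FPKM in conditioned libraries and 54.5, 55.9 and 55.0 FPKM in controls. It rose by 0.21 ± 0.03 SE on the log2 scale (adjusted p = 0.0061, limma), and its conditioned libraries had an SD of 0.194 FPKM. Tm7sf2 and Lbr both encode reductases of the next double bond, and Lbr also anchors chromatin at the inner nuclear membrane. Tm7sf2 had 5.27, 4.01 and 4.77 FPKM in conditioned libraries and 4.21, 4.89 and 5.40 FPKM in controls, with overlap (log2 fold change -0.04 ± 0.10 SE, adjusted p = 0.88, limma). Its exons overlap those of Vps51 on the same strand in GENCODE M21, while the gene length behind its FPKM is not that of this annotation, so the share of counted bases is unknown. Lbr had 6.13, 6.02 and 6.31 FPKM in conditioned libraries and 5.64, 4.86 and 4.92 FPKM in controls. Its conditioned libraries were all higher, and it did not pass (0.22 ± 0.06 SE, adjusted p = 0.083, limma). Whether this pair differ in response was not tested.

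The next enzymes strip methyl groups from the sterol ring and work as a complex. Msmo1, the methylsterol oxidase (chromosome 8 from 64718139 to 64733792), had 30.2, 32.1 and 31.2 FPKM in conditioned libraries and 24.9, 23.8 and 23.6 FPKM in controls. Its log2 fold change of 0.36 ± 0.04 SE had the smallest adjusted p of the 27 (0.0015, limma). Nsdhl, the decarboxylating dehydrogenase on the X chromosome, had 33.1, 34.9 and 32.6 FPKM in conditioned libraries and 28.3, 27.8 and 28.0 FPKM in controls (0.25 ± 0.04 SE, adjusted p = 0.0070, limma). Hsd17b7, the ketosteroid reductase, had 27.2, 29.4 and 27.6 FPKM in conditioned libraries and 23.6, 23.0 and 22.8 FPKM in controls (0.27 ± 0.04 SE, adjusted p = 0.0086, limma). These 3 catalytic members rose with no overlap between the groups. Erg28, known in yeast as the scaffold that holds this complex together, had 11.5, 13.6 and 11.9 FPKM in conditioned libraries and 11.6, 11.7 and 12.6 FPKM in controls. The groups overlapped, and the log2 fold change was 0.03 ± 0.07 SE (adjusted p = 0.83, limma) with bounds of -0.10 to 0.17 at 2 SE.

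The last steps move and reduce double bonds. Ebp, the sterol isomerase, had 15.4, 14.5 and 13.9 FPKM in conditioned libraries and 11.5, 13.1 and 12.1 FPKM in controls, without overlap. It narrowly missed the threshold (0.24 ± 0.06 SE, adjusted p = 0.051, limma). Sc5d, the desaturase after it, had 21.2, 22.7 and 20.9 FPKM in conditioned libraries and 18.6, 19.2 and 18.4 FPKM in controls (0.19 ± 0.04 SE, adjusted p = 0.041, limma). Dhcr7, which completes cholesterol from its dehydro precursor, had 9.79, 9.90 and 10.4 FPKM in conditioned libraries and 8.79, 7.79 and 8.59 FPKM in controls (0.23 ± 0.06 SE, adjusted p = 0.047, limma). All 3 had separate groups, with adjusted p-values just on either side of the threshold. The call of Sc5d was lost without any 1 of the 6 libraries, and that of Dhcr7 without any 1 except control replicate 1.

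The regulators and carriers gave 0 calls of 6 in limma, beside 6.53% of all genes tested. At an unadjusted p below 0.05 there were 3, beside 19.6% of all genes. By voom 2 were called higher, Insig1 and Stard4, beside 5.61% of all genes. In 4 of the 6 all conditioned libraries lay above the controls, beside 14.3% of all genes, and their median log2 fold change was 0.11. Whether these 6 differ from the enzymes was not tested. Srebf2, the SREBP form that mainly drives cholesterol genes and is also one of its own targets, had 43.9, 41.9 and 41.8 FPKM in conditioned libraries and 39.6, 40.7 and 40.9 FPKM in controls. All conditioned libraries lay above the controls, the lowest at 1.02 times the highest control (log2 fold change 0.07 ± 0.04 SE, adjusted p = 0.32, limma). Scap, the escort protein, had 11.9, 11.8 and 12.4 FPKM in conditioned libraries and 12.1, 11.9 and 12.3 FPKM in controls. These overlapped throughout (log2 fold change -0.0048 ± 0.04 SE, adjusted p = 0.97, limma), with bounds of -0.09 to 0.08 at 2 SE.

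Insig1, the retention protein that is itself a strong SREBP target, had 57.1, 58.6 and 57.5 FPKM in conditioned libraries and 52.3, 51.0 and 53.7 FPKM in controls. Its conditioned libraries were all higher, and it did not pass (0.14 ± 0.03 SE, adjusted p = 0.056, limma). Insig2, a related retention protein, had 17.4, 16.2 and 17.2 FPKM in conditioned libraries and 15.5, 15.4 and 15.0 FPKM in controls (0.14 ± 0.04 SE, adjusted p = 0.11, limma). All 3 conditioned libraries lay above the controls here too, and whether the Insig pair differ in response was not tested.

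Stard4, a soluble sterol carrier, had 17.1, 17.1 and 18.3 FPKM in conditioned libraries and 15.8, 14.6 and 13.4 FPKM in controls. It stood apart without passing (0.25 ± 0.06 SE, adjusted p = 0.052, limma), and passed without control replicate 1 (adjusted p = 0.020). Npc1, which exports cholesterol from lysosomes, had 6.64, 6.80 and 7.31 FPKM in conditioned libraries and 6.93, 7.37 and 6.70 FPKM in controls. Its groups overlapped (-0.01 ± 0.06 SE, adjusted p = 0.92, limma). Its exons overlap Rmc1 on the opposite strand in GENCODE M21, by an unknown share of the bases counted.

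Other genes of sterol metabolism were read from lists of named genes. Of 6 genes that supply acetyl-CoA, 3 were called higher and 0 lower, beside 4.04% and 2.49% of all genes tested. Acly, which splits citrate to acetyl-CoA in the cytosol, had 118, 120 and 115 FPKM in conditioned libraries and 98.1, 99.0 and 96.8 FPKM in controls (0.26 ± 0.03 SE, adjusted p = 0.0022, limma), and passed in all 15 alternatives. Acss2, which makes acetyl-CoA from acetate, rose by 0.25 and Aacs, which activates acetoacetate, by 0.19 on the log2 scale (adjusted p = 0.041 and 0.049, limma). The count was 1 without any 1 of conditioned replicates 1, 2 and 3 or control replicates 2 and 3, which was Acly. Of 7 electron donors and partners of the sterol oxidases, 1 was called higher and 0 lower, beside the same 4.04% and 2.49%. This was Cyb5a, a cytochrome that passes electrons to enzymes such as Msmo1 and Sc5d, with 42.7, 41.3 and 43.3 FPKM in conditioned libraries and 32.6, 34.2 and 35.2 FPKM in controls (0.31 ± 0.04 SE, adjusted p = 0.0032, limma). Por, the reductase that feeds Cyp51 and Sqle, had 17.5 ± 0.769 FPKM in conditioned and 17.7 ± 0.151 FPKM in control libraries (SD, n = 3 each) and did not pass.

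The machinery that processes SREBP or degrades sterol enzymes had 0 calls of 15 in limma, with 5 at an unadjusted p below 0.05, 4 of them lower, and 1 lower by voom. Of all genes tested, limma called 6.53% and 19.6% had an unadjusted p below 0.05, each in either direction, and voom called 4.18% lower. The list's median log2 fold change was -0.02. Srebf1, the SREBP form tied more to fatty acid synthesis, had 28.8 ± 1.33 FPKM in conditioned and 27.7 ± 0.675 FPKM in control libraries (SD, n = 3 each) and did not pass. Of 17 tested genes of lipoprotein uptake, sterol transport and storage, limma called 0 higher and 1 lower, beside 4.04% and 2.49% of all genes. At an unadjusted p below 0.05 there were 6, beside the 19.6% of all genes. By voom 1 was higher and 1 lower, beside 5.61% and 4.18% of all genes. The 1 lower in limma was Cav1, a cholesterol-binding coat protein of caveolae, with 140, 148 and 149 FPKM in conditioned libraries and 164, 162 and 160 FPKM in controls (-0.15 ± 0.04 SE, adjusted p = 0.047, limma). That call was lost without any 1 of the 6 libraries. Scarb1, a lipoprotein receptor, had a log2 fold change of 0.23 ± 0.07 SE and did not pass (adjusted p = 0.094, limma). Mylip, of the same list, had 0.23 ± 0.06 SE and did not pass either (adjusted p = 0.056, limma). In 5 of the 17 the conditioned libraries lay all above the controls and in 2 all below, beside 14.3% and 11.6% of all genes.

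Of 10 tested fatty acid synthesis genes, 5 were called higher and 0 lower, beside 4.04% and 2.49% of all genes tested. The 5, with their log2 fold changes, were Acsl3 (0.30), Fasn (0.22), Scd1 (0.21), Scd2 (0.17) and Fads1 (0.16). The list's median log2 fold change was 0.17. The count was 1, 0 and 0 without conditioned replicates 1, 2 and 3, and 5, 1 and 3 without control replicates 1, 2 and 3. At an unadjusted p below 0.05, 9 of the 10 were higher and 0 lower, beside 11.2% and 8.41% of all genes tested. By voom 9 were higher and 0 lower, beside 5.61% and 4.18% of all genes. In 9 of the 10 all conditioned libraries lay above the controls, beside 14.3% of all genes. Of 8 tested genes of the sterol-sensing receptor LXR and sterol efflux, 1 was higher and 1 lower, beside the same 4.04% and 2.49%. Lpcat3, a phospholipid remodelling enzyme, had a log2 fold change of 0.20, and Ch25h, which makes an oxysterol that holds back SREBP, had 0.953, 0.472 and 0.820 FPKM in conditioned libraries and 1.40, 1.38 and 1.84 FPKM in controls. Ch25h fell by 0.54 ± 0.13 SE on the log2 scale (adjusted p = 0.043, limma), at a level near the filter. Its call was lost without any 1 of the 6 libraries, and that of Lpcat3 without any 1 except control replicate 3.

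**Figure D3:**
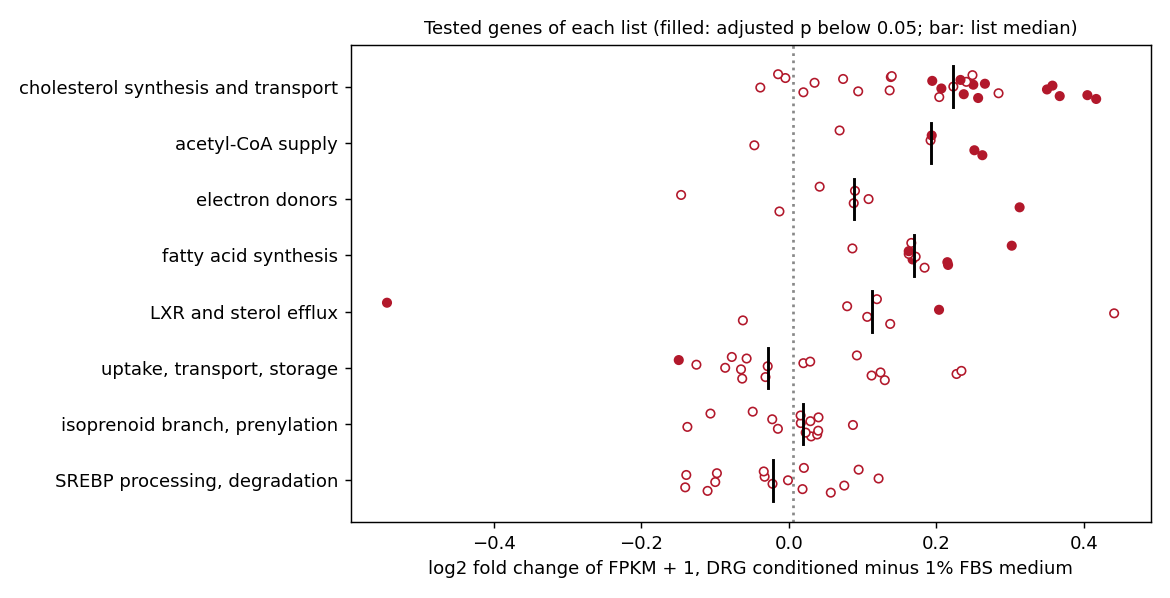
Log2 fold change of FPKM + 1 between DRG conditioned and 1% FBS medium (horizontal) for the tested genes of each list (rows), filled where the adjusted p is below 0.05, with a bar at the list median and a dotted line at the median of all genes tested. The 27 cholesterol genes have a median of 0.22, fatty acid synthesis 0.17, and the list of SREBP processing genes -0.02.

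The library totals behind the FPKM, as recovered from the values, were 18814702 to 23481945 fragments in the conditioned and 20169834 to 26233217 fragments in the control libraries. Of 10 tested tendon fibroblast markers 7 were lower and 0 higher in conditioned libraries, beside 2.49% and 4.04% of all genes tested. Tnmd, Fmod and the collagen Col1a1 were among the 7. Scx, Mkx and Pdgfra did not pass, with log2 fold changes of -0.18, 0.0053 and 0.17. By voom 7 of the markers were lower and 1 higher, beside 4.18% and 5.61% of all genes tested. The summed level of the tendon markers was 4263 to 4370 FPKM in conditioned and 5293 to 5421 FPKM in control libraries. Most of that sum came from the collagens Col1a1, Col1a2 and Col3a1, with control means of 3337, 1040 and 753 FPKM. Tppp3 itself, the gene of the label, was under the level for testing, at 0.777 to 1.12 FPKM in conditioned and 0.724 to 1.05 FPKM in control libraries. Summed markers of DRG neurons (7 genes, each with a mean under 1 FPKM, while 5 more listed markers were not analysed here) were 1.54 to 1.84 FPKM in conditioned and 2.16 to 2.28 FPKM in control libraries. Glial markers (7 of 8 under 1 FPKM) summed to 2.25 to 3.48 FPKM in conditioned and 3.41 to 4.08 FPKM in control libraries. Macrophage markers (4 of 7 under 1 FPKM) summed to 6.68 to 7.02 FPKM in conditioned and 6.63 to 7.83 FPKM in control libraries. Endothelial and mural markers (4 of 7 under 1 FPKM) summed to 16.3 to 18.7 FPKM in conditioned and 19.2 to 19.7 FPKM in control libraries, and Tek was the 1 gene of the 4 lists of other cell types that passed, lower in conditioned libraries (-0.33, adjusted p = 0.023, limma). Fewer cells of a type and less RNA per cell cannot be told apart in such bulk libraries, and the part of these cells in the results above was not tested.

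**Figure D4:**
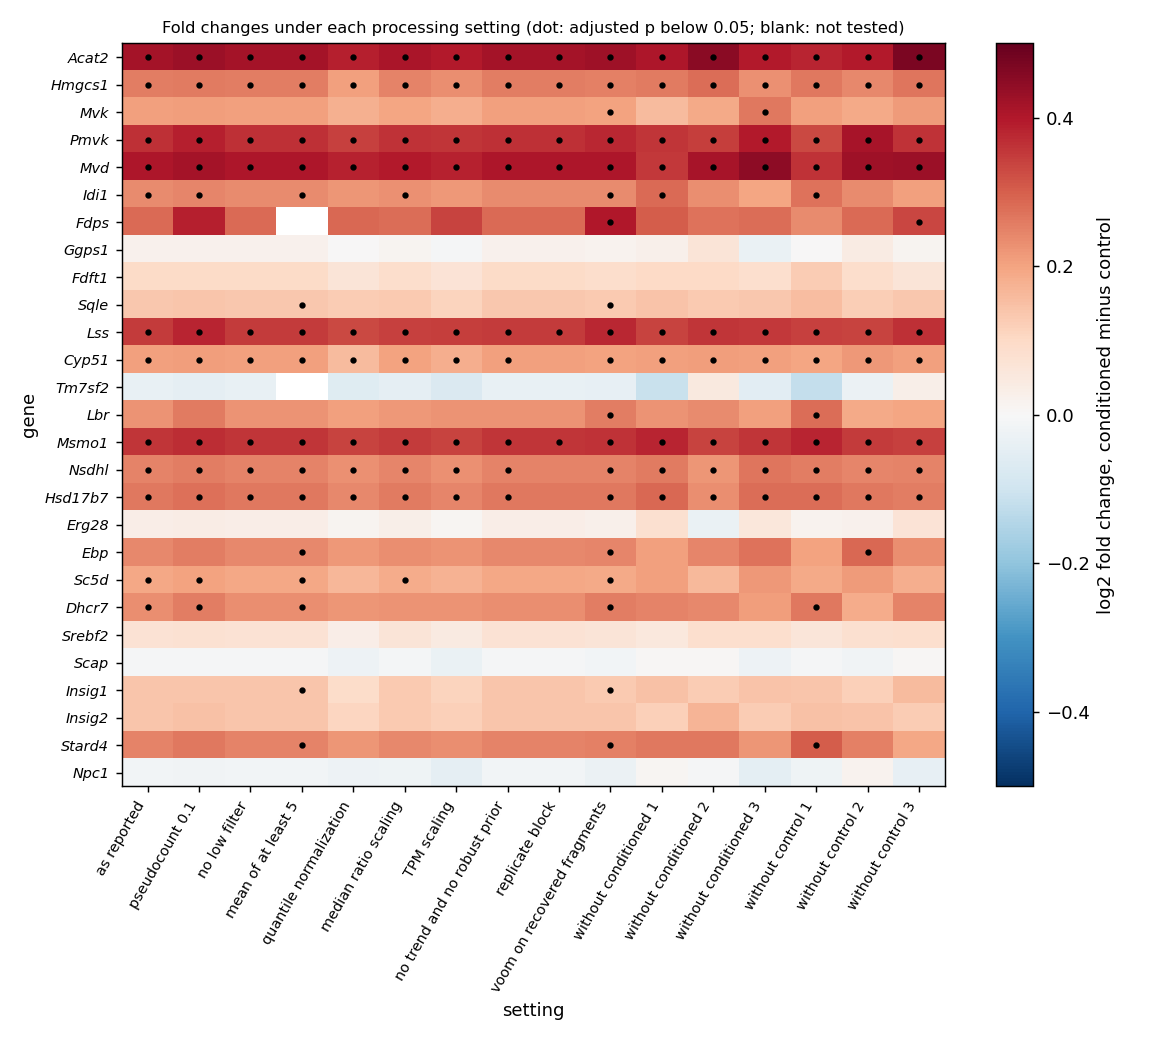
Log2 fold change, conditioned minus control (colour), of each of the 27 genes (rows) under the reported processing and 15 alternatives (columns), with a dot where the adjusted p is below 0.05 and a blank where the gene was not tested. Acat2, Hmgcs1, Pmvk, Mvd, Lss and Msmo1 have a dot in every column.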

How the data were processed

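The authors deposited FPKM values per gene and library. Per the submitters' processing notes, CASAVA, HISAT2 2.0.5 and the mm10 build were used, with no role stated, and per the labels' protocols libraries were poly-A selected and paired-end. The counting program, annotation, strand setting and filters remain not given in the sources used here.

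Values were transformed as log2(FPKM + 1), and the 11678 of 24413 genes averaging 1 FPKM or more entered a limma fit (version 3.58.1, R 4.3.3; moderated linear model, mean-variance trend, robust prior, two-sided, no covariate), with Benjamini-Hochberg adjustment and a threshold of 0.05. Fold changes on this scale understate changes of low genes. With GENCODE M21 exon lengths, the deposited FPKM gave whole fragments (tolerance 0.01 fragment) in 23574 of 24413 genes. For the other 839, Tm7sf2 and Npc1 among them, a length was chosen because it gives whole fragments, so their recovered fragments are less certain. Recovered fragments served for depth and voom, and in conditioned replicate 1 they exceeded the recovered library total by a small amount (-0.012% of the total outside the table). Libraries of a group differed beyond sampling noise (chi-square 3.03 to 6.56 per degree of freedom). The fit was tested on simulated fragments.

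The members and lists were chosen with earlier results of these data known. All members are described, and of other pathway lists the genes that passed are named. Por, Srebf1, Scarb1, Mylip, Acat3, Ctsb and the marker genes were named after their values were seen. Alternatives covered the pseudocount, level filter, scaling, prior, block, voom (TMM scaling written for this purpose) and leaving out each library. Coordinates are from GENCODE M21 (mm10), promoters from RefSeq (GRCm38.p6). Work was done in Python 3.11.15 with pandas 2.3.3, and figures in matplotlib 3.10.9.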

Additional observations from a re-analysis of the deposited data

How the results depend on the processing

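The reported 763 calls over all genes became 492 with no low filter and 390 with the replicate number as a block. They became 1143 by voom on recovered fragments, and 394 to 676 when 1 library was left out. Of the 27 genes, 12 were called higher as reported, 6 with the replicate block (Acat2, Hmgcs1, Pmvk, Mvd, Lss and Msmo1), 19 by voom on recovered fragments and 9 to 13 when 1 library was left out, with 0 lower in each. Of all genes tested, 4.04%, 2.22%, 5.61% and 2.27% to 3.65% were called higher there. Deviations of same-numbered libraries correlated at -0.095, -0.008 and -0.048 across genes, no conditioned library correlated best with the control of its own number, and the libraries share only a number. Nsdhl, Hsd17b7 and Cyp51 kept their calls in the other 14 alternatives. The median log2 fold change of the 27 genes was 0.22 as reported, 0.24 with a pseudocount of 0.1, 0.21 with quantile normalization, 0.22 with median ratio or TPM scaling, 0.24 by voom, and 0.20 to 0.22 when 1 library was left out. In the other lists, 10 genes were called higher as reported, 5 with no low filter, 5 with quantile normalization, 4 with no trend and no robust prior, 2 with the replicate block, 16 by voom, and 2 to 8 when 1 library was left out. Higher calls made up 61.9% of all calls as reported, 52.2% with quantile normalization and 50.9% with TPM scaling. The causes were not tested. Among 403 pairs of a gene and an alternative, 34 lost a call, 16 gained one and none reversed a call. With a mean of at least 5 FPKM, Fdps and Tm7sf2 were not tested, and 16 of 25 genes were called higher. The share of all genes called higher was 6.6% there (468 of 7088), against 4.04% as reported.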
